A study of Mus musculus with 2 samples.

Results

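Members of 4 families of enzymes that chemically modify drugs, pollutants, fatty acids and sterols were measured in the adrenal gland: cytochromes P450, UDP-glucuronosyltransferases (UGTs), sulfotransferases and flavin-containing monooxygenases (FMOs). Members were all protein-coding genes whose symbol starts with Cyp, Ugt, Sult or Fmo followed by a digit, after 7 P450s were left out by name: Cyp11a1, Cyp11b1, Cyp11b2, Cyp17a1, Cyp21a1, Cyp51 and Cyp26b1. This gave 143 genes of 55536 annotated genes, made up of 93 P450s, 22 UGTs, 21 sulfotransferases and 7 FMOs. The set is named for enzymes outside adrenal steroid synthesis, but the rule keeps a few P450s that act on sterols or steroids, among them Cyp19a1, Cyp7b1 and Cyp27a1. Another 37 entries with a matching symbol had no protein-coding transcript and were not members.

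Total RNA was sequenced from whole adrenal glands of adult male mice of 8 to 10 months, from a cross between the 5xFAD strain and CAST. 5xFAD mice carry mutated human transgenes driven by the neuronal Thy1 promoter. CAST is an inbred strain derived from wild mice. There were 2 libraries, labelled as biological replicates 1 and 2 of 1 group. Both carry the same label for cross, sex, age range and tissue, and no library of another cross or genotype was analysed here. The labels give them separate tissue samples but the same donor record, so whether the glands came from separate animals is not given in the sources used here. With 1 group of 2 libraries the design holds no test between groups, and the smallest two-sided p that flipping signs over 2 libraries can give is 0.5. Each level is therefore given in both libraries, and the spread between them may be technical. The libraries held 29204658 and 26322473 expected counts over annotated genes. Reads of CAST origin were counted against the mm10 reference, which is of another strain, and the effect on each gene was not tested.

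P450s are haem enzymes that insert an oxygen atom into a substrate. Those of the endoplasmic reticulum receive electrons from the reductase Por and from cytochrome b5. FMOs oxidise nitrogen and sulfur atoms with a flavin cofactor. UGTs and sulfotransferases then attach glucuronic acid or sulfate, which makes the product easier to excrete. The liver is the best known site of these enzymes, and the adrenal cortex is best known for the P450s of steroid synthesis that the rule leaves out.

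Levels are given as TPM, a length-corrected share of the library that sums to 1000000, from the deposited gene tables, and as mean ± SD over the 2 libraries (n = 2). Detection of a gene required at least 1 TPM in each library. Protein-coding genes together held 363545 and 369534 TPM in replicates 1 and 2, and other features, abundant non-coding RNA among them, held the rest. In counts, which are not corrected for length, protein-coding genes held a larger part, at 21323554 of 29204658 and 19374201 of 26322473. The same TPM limit is therefore stricter here than in mRNA sequencing.

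The tissue label was checked against marker genes. All 4 cortex markers and all 4 chromaffin markers were detected, with summed levels of 10390 and 10756 TPM and of 1337 and 1550 TPM in replicates 1 and 2. Of 8 hepatocyte markers 1 was detected (Ahsg at 2.45 ± 0.02 TPM), the list summed to 3.56 and 3.15 TPM, and the albumin gene Alb was at 0.72 and 0.34 TPM. Of 8 kidney tubule markers 1 was detected (Aqp2 at 1.69 and 1.01 TPM), and Slc12a1 and Kap had no count. All 8 white adipocyte markers were detected, and all 8 were lower in replicate 2, their sum being 757 TPM in replicate 1 and 468 TPM in replicate 2.

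Most of the enzyme genes were below the detection limit. Of the 143 genes, 27 were detected (18.9%), against 56.4% of the 21901 protein-coding genes. No count in either library was found for 63 of the 143 (44.1%), against 22.0% of protein-coding genes. Counting alone allows up to 3 counts for such a gene, which over these genes corresponded to 0.0645 and 0.0722 TPM in replicates 1 and 2 at the median. Of the 116 genes below the limit, 53 had some count and 108 had a mean under 0.5 TPM.

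The share detected was highest for FMOs and lowest for UGTs, each from few detected genes, and was alike for P450s and sulfotransferases. Of the FMOs 3 of 7 were detected (42.9%), of the P450s 18 of 93 (19.4%), of the sulfotransferases 4 of 21 (19.0%) and of the UGTs 2 of 22 (9.09%). No count in either library was found for 37 P450s, 11 UGTs, 13 sulfotransferases and 2 FMOs. Detected members had a median of 6.57 TPM, below the median of 12.4 TPM over all detected protein-coding genes.

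Summed over the 143 genes, the level was 248 TPM in replicate 1 and 270 TPM in replicate 2. P450s made up most of it, at 188 and 192 TPM. FMOs summed to 32.8 and 44.0 TPM, sulfotransferases to 20.8 and 23.0 TPM and UGTs to 6.94 and 11.3 TPM. The 5 highest genes held 46.9% and 46.7% of the whole. The 7 P450s left out by name summed to 7093 and 7682 TPM, which was 37.8 and 40.0 times the sum of the 93 P450 members.

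**Figure D1:**
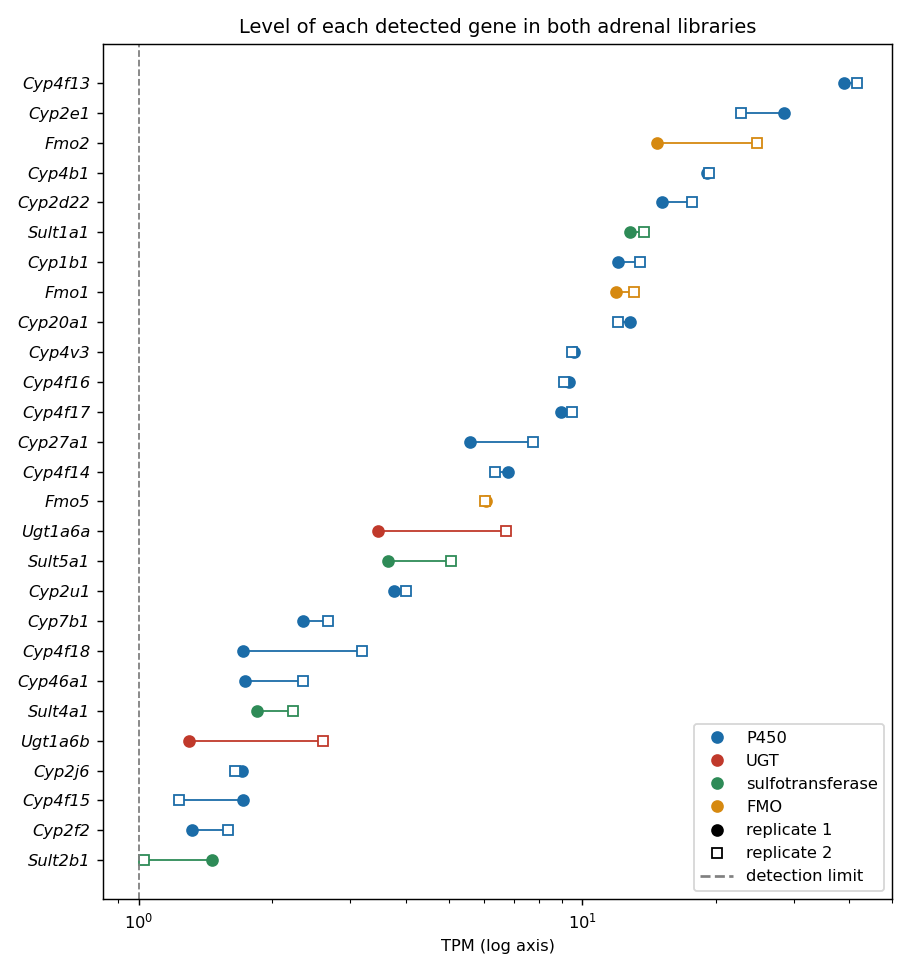
TPM of the 27 detected genes on a log axis, with replicate 1 as filled circles, replicate 2 as open squares and the colour giving the enzyme class. The genes run from Cyp4f13 at 40.2 TPM to Sult2b1 at 1.25 TPM, and the widest gaps between the libraries are those of Ugt1a6a, Ugt1a6b, Cyp4f18 and Fmo2.

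Among P450s, the Cyp4 family, which mostly hydroxylates fatty acids and eicosanoids at the end of the chain, supplied 8 of the 18 detected genes. Cyp4f13 (chr17:32924688-32947402, mm10) had the highest level of all 143 genes, at 38.92 TPM in replicate 1 and 41.51 TPM in replicate 2. Its neighbours in the same locus were lower: Cyp4f16 was at 9.35 and 9.11 TPM and Cyp4f17 at 8.95 and 9.46 TPM. Cyp4f14, a leukotriene hydroxylase of mouse liver, was at 6.79 and 6.35 TPM, and Cyp4f15 was at 1.72 and 1.23 TPM. The libraries differed by less than 0.2 on the log2 scale of counts for each of these 5 genes.

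Cyp4b1, a P450 best known from lung, was at 19.13 and 19.34 TPM. Cyp4v3, the mouse counterpart of a human gene mutated in Bietti crystalline dystrophy of the retina, was at 9.57 and 9.46 TPM. Both were nearly level between the libraries. Cyp4f18, known for hydroxylating leukotriene B4 in mouse neutrophils, was lower and less even, at 1.72 and 3.19 TPM from 69 and 104 counts.

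Of the P450s known for drugs and pollutants, Cyp2e1 (chr7:140763739-140774987), which oxidises ethanol and other small solvents, was highest, at 28.48 and 22.75 TPM. It was above the median of 12.4 TPM for detected protein-coding genes, in libraries where Alb was under 1 TPM. Cyp2d22, of the debrisoquine hydroxylase family, was at 15.12 and 17.71 TPM. Cyp1b1, which oxidises polycyclic hydrocarbons and oestrogens, was at 12.03 and 13.46 TPM from 1554 and 1549 counts. Cyp2f2, known for the oxidation of naphthalene in mouse airways, was at 1.32 and 1.59 TPM. Of the Cyp2 genes known for lipid substrates, Cyp2u1, a fatty acid hydroxylase, was at 3.76 and 4.01 TPM and Cyp2j6, of a family that makes epoxides of arachidonic acid, at 1.71 and 1.65 TPM.

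Cyp1b1 stood apart from the other P450s of its family. Cyp1a1 had 2 counts in replicate 1 and 0 in replicate 2, and Cyp1a2 had 0 and 1, so both were at or under the 3 counts that a count of 0 allows. All 3 are known targets of the aryl hydrocarbon receptor, which binds DNA with its partner Arnt. The receptor gene Ahr was at 1.38 and 1.37 TPM and Arnt at 28.35 and 30.55 TPM. The 250 bases before the RefSeq start site are shown for Cyp1b1, which was detected, and Cyp1a1, which was not, because both hold the receptor's core, GCGTG on either strand, with the core in capitals (GRCm38.p6, RefSeq, 5′ to 3′ on the gene's strand). The Cyp1b1 window is chr17:79715062-79715311, minus strand, and the Cyp1a1 window is chr9:57697363-57697612, plus strand.
Cyp1b1: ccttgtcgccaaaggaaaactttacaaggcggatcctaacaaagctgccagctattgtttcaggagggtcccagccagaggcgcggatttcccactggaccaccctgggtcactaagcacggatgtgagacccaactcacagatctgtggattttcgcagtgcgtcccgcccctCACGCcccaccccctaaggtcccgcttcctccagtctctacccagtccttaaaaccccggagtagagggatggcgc
Cyp1a1: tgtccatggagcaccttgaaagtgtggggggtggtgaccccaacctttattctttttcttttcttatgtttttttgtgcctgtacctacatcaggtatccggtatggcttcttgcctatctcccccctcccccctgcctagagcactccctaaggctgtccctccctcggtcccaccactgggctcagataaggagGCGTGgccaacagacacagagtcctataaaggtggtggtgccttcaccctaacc
Each window held 1 match, starting 76 bases before the start site in Cyp1b1 and 54 bases before it in Cyp1a1, and the window of Cyp1a2 held none. The core is short and common: 28.2% of 32851 promoter windows of this length held it. Among the 116 members with a promoter entry, 21 held it (18.1%), made up of 7 of 20 detected genes (35.0%) and 14 of 96 genes below the limit (14.6%), against 30.9% of the 27025 genes in the table. A match is a string of letters and no evidence of binding.

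Several P450s act on cholesterol and its products. Cyp27a1, the mitochondrial sterol side-chain hydroxylase, was at 5.58 and 7.75 TPM. Cyp7b1, an oxysterol hydroxylase, was at 2.35 and 2.67 TPM, and Cyp46a1, the cholesterol hydroxylase of brain neurons, was at 1.74 and 2.34 TPM. Cyp39a1, another oxysterol hydroxylase, passed the limit in replicate 1 only, at 1.38 and 0.85 TPM. Of the liver enzymes of bile acid synthesis, Cyp7a1, its rate-limiting enzyme, had no count in either library, and Cyp8b1 had 12 and 2 counts (0.23 and 0.04 TPM). The aromatase gene Cyp19a1 had no count in the gene tables of either library, and the second quantifier gave it 13.4 and 13.0 estimated counts. Cyp20a1, which has no assigned substrate, was at 12.84 and 12.06 TPM, among the 9 highest genes.

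Unlike Cyp2e1 and Cyp2d22, the Cyp3a and Cyp2c genes, also known for drug metabolism in liver, were not detected. Cyp3a11 had 2 and 4 counts, and none of the 8 members of the Cyp3a locus reached the limit. The Cyp2c locus had 14 members with no detected gene, 11 of them without any count. Of genes below the limit, Cyp2s1 was at 1.08 and 0.76 TPM and Cyp2b10, an inducible P450 of mouse liver, had a mean of 0.55 ± 0.10 TPM. Cyp2j9 had a mean of 0.61 ± 0.35 TPM, Cyp2j12 of 0.54 ± 0.13 TPM and Cyp2r1, a vitamin D hydroxylase, of 0.53 ± 0.02 TPM.

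Flavin-containing monooxygenases were few, and the 3 detected had a median of 12.5 TPM, close to the 12.4 TPM over detected protein-coding genes. Fmo2 (chr1:162874317-162898726), the main form in the lung of most mammals, was at 14.71 TPM in replicate 1 and 24.73 TPM in replicate 2. Fmo1, which lies beside it in the same locus, was at 11.93 and 13.06 TPM, and Fmo5, a Baeyer-Villiger oxidase encoded elsewhere, at 6.08 and 6.03 TPM.

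Sulfotransferases were led by Sult1a1, which sulfates phenols, at 12.79 and 13.79 TPM. Sult5a1 was at 3.65 and 5.07 TPM. Sult4a1, best known from brain, was at 1.85 and 2.23 TPM, and Sult2b1, which sulfates cholesterol and pregnenolone, was just above the limit at 1.46 and 1.03 TPM from 28 and 27 counts. The protein-coding transcripts of Sult2b1 held 0.65 and 0.85 TPM, below the limit. Sult1e1, the oestrogen sulfotransferase, stayed just below the limit, at 0.83 and 0.82 TPM. Sult2a1, of the hydroxysteroid sulfotransferase family, had no count in either library, and 7 of the 8 members of the Sult2a locus had none.

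UGT RNA lay almost wholly in the Ugt1a locus, which held 6.66 of the 6.94 TPM of all UGTs in replicate 1 and 11.2 of 11.3 TPM in replicate 2. Its 9 genes on chromosome 1 each have their own first exon, joined to the same exon 2 (chr1:88215044-88215175, mm10), which is common to all 9. The joins are shown for the 4 genes named below, from 1 transcript of each in GENCODE M21, because the exon 2 side is shared. Given are 20 bases of exon 1 in lower case, then the first 20 bases of exon 2 in capitals.
Ugt1a6a: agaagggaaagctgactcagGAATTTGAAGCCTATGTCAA
Ugt1a6b: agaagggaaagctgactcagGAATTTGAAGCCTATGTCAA
Ugt1a7c: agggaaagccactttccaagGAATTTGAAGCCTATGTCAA
Ugt1a1: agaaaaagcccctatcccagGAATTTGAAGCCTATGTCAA
The exon 2 part was the same in all 9 genes, and the exon 1 parts of Ugt1a6a and Ugt1a6b were the same as each other. Their first exons span chr1:88138378-88139331 and chr1:88106862-88107799. Of all 50-base stretches in their protein-coding transcripts, 96.0% in Ugt1a6a and 79.8% in Ugt1a6b also occurred in another gene, the highest shares among detected members after which came Cyp4f16 with 26.0%. Ugt1a6a shared most with Ugt1a7c (94.2%), although the joins printed for these genes differ, and Ugt1a6b shared most with Ugt1a6a (79.6%). The split between these genes is therefore an estimate.

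Ugt1a6a, which conjugates phenols, was at 3.47 TPM in replicate 1 and 6.74 TPM in replicate 2, and Ugt1a6b at 1.30 and 2.60 TPM. The posterior SD of the count, as deposited, was 7.22% and 4.93% of the count for Ugt1a6a and 16.8% and 11.0% for Ugt1a6b. Ugt1a7c was at 1.23 and 0.93 TPM. Ugt1a1, the bilirubin enzyme of liver, was at 0.14 and 0.23 TPM. Of the 10 genes of the Ugt2 locus, none was detected, and Ugt2b1 had 1 and 2 counts.

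Among the members, the share detected differed with genomic arrangement. Neighbouring members of the same class less than 500 kb apart were joined into a locus, which gave 46 loci. Of the 29 members that lay alone, 14 were detected (48.3%), against 56.4% of all protein-coding genes. The 11 loci with 5 or more genes held 101 members, of which 13 were detected (12.9%). The loci with 2 to 4 genes held 13 members and no detected gene. In 4 of the 11 large loci (Cyp2c, Cyp3a, Sult2a and Ugt2), no gene of 40 was detected. Shared sequence moved with this pattern: over 10% of 50-base stretches occurred in another gene for 54 of the 116 members below the limit and for 3 of the 27 detected members. Its part in the result was not tested.

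In 4 of the large loci exactly 1 gene was detected. The Cyp2d locus summed to 15.4 and 17.8 TPM, of which Cyp2d22 held 15.12 and 17.71 TPM. The locus with the Cyp4a genes, Cyp4b1 and Cyp4x1 summed to 19.7 TPM in both libraries, of which Cyp4b1 held 19.13 and 19.34 TPM. The Cyp4f locus on chromosome 17 differed, with 5 of 8 genes detected (62.5%).

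**Figure D2:**
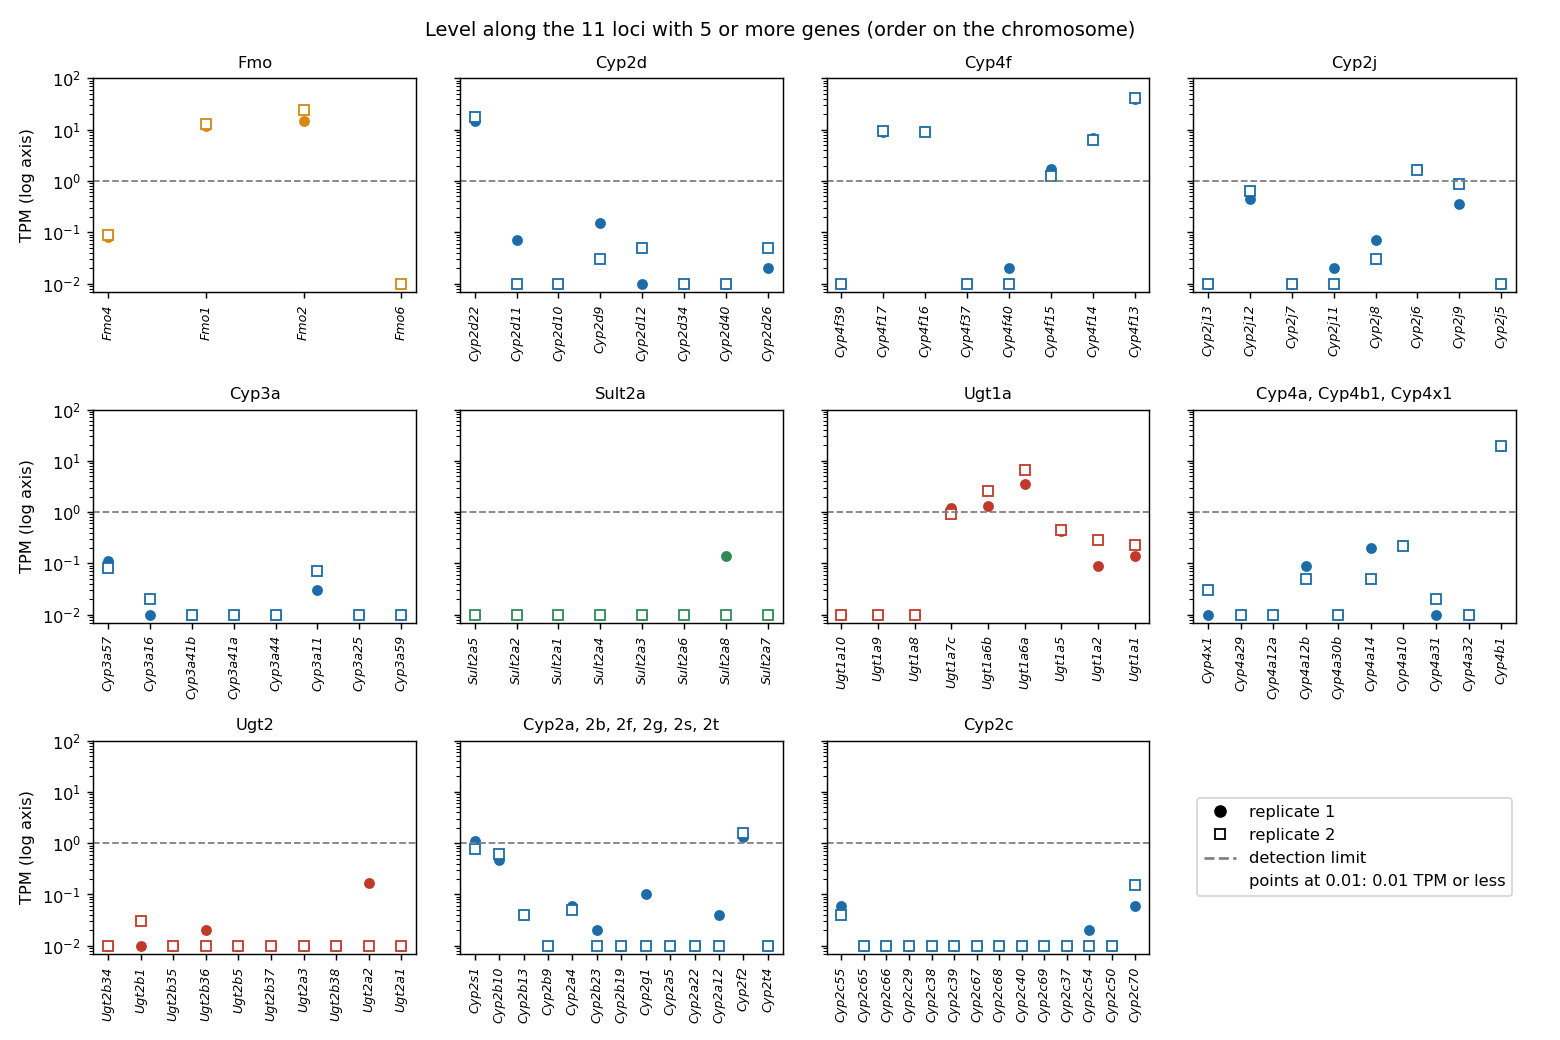
TPM on a log axis of genes along the 11 loci with 5 or more members, in chromosomal order and with 1 gene not shown, with replicate 1 filled and replicate 2 open. Points at 0.01 stand for 0.01 TPM or less. The Cyp4f panel has 5 genes above the limit of 1 TPM, and the panels of Cyp2c, Cyp3a, Sult2a and Ugt2 have none.

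By TPM, several detected genes were not mainly in transcripts annotated as protein-coding. TPM is corrected for length, so short transcripts weigh more in it than in counts. In Cyp4f13, the protein-coding Cyp4f13-201 (1752 bases) had 429.96 and 483.4 counts and 9.09 and 11.44 TPM. The retained-intron Cyp4f13-214 (424 bases) had 64.65 and 64.71 counts and 6.97 and 7.81 TPM. Shares of counts are not given here. Over the 143 genes, protein-coding transcripts held 77.2% and 75.5% of the TPM in replicates 1 and 2, against 82.3% and 82.2% over all protein-coding genes. The share was 73.5% and 70.1% over P450s, 98.7% and 98.0% over UGTs, 83.6% and 84.4% over sulfotransferases and 89.5% and 88.5% over FMOs. These shares are weighted by level, so Cyp4f13, the highest gene, counted most in those of all members and of P450s. In Cyp4f13 protein-coding transcripts held only 38.7% and 29.2%, while transcripts with a retained intron held 55.3% and 61.6%. By the TPM of protein-coding transcripts alone, Cyp2e1 came first with 28.09 and 22.75 TPM, and Cyp4f13 came at rank 4 with 15.05 and 12.14 TPM.

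Cyp4f16 had 29.6% and 28.5% in protein-coding transcripts, and Sult5a1 had 30.7% and 32.7%. The second quantifier gave 31.3% and 40.9% for Cyp4f16, 25.7% and 30.4% for Sult5a1 and 37.6% and 34.3% for Cyp4f13, so the order of these 3 genes was not settled. In Sult5a1 a transcript marked for nonsense-mediated decay led, with 52.1% and 56.9% of the gene, and with 38.8% on average in the second quantifier. It was the 1 detected member of 27 whose leading transcript was not protein-coding in both libraries (3.70%), against 5.8% of detected protein-coding genes. Cyp2d22 had 60.3% and 58.4% in protein-coding transcripts, with retained-intron transcripts holding the rest. For 7 detected members, Cyp4v3, Cyp4f14 and Sult1a1 among them, the annotation holds protein-coding transcripts only, so their share could be nothing but the whole. The leading transcript was not the same in both libraries for 4 detected members: Cyp4f14, Cyp4f16, Ugt1a6b and Sult2b1. Between the quantifiers, 22 of 27 detected members kept the same leading transcript. Total RNA also holds unspliced nuclear RNA, whose part in these shares was not tested.

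**Figure D3:**
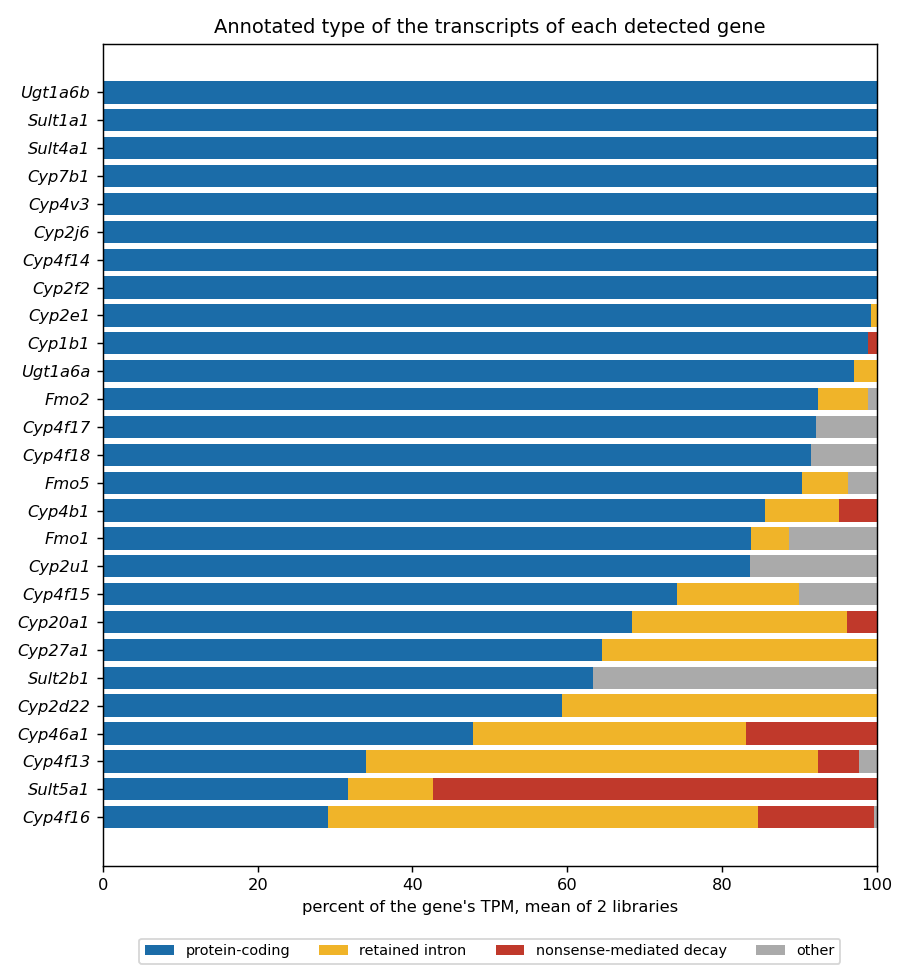
Percent of each detected gene's TPM in protein-coding, retained-intron, nonsense-mediated decay and other transcripts, as the mean of both libraries. Cyp4f16, Sult5a1, Cyp4f13 and Cyp46a1 have less in protein-coding transcripts than in all others together.

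The libraries were close for most members. Ratios of replicate 2 to replicate 1 were computed from counts for the 35 members with a mean count of 20 or more, and are given on the log2 scale with a standard error that covers counting only. Their median was 0.08, with 20 members higher and 15 lower in replicate 2, and the median over 16376 genes was -0.01. The median size of the ratio, sign aside, was 0.157 over members and 0.107 over protein-coding genes. Over the same members the median counting standard error was 0.161. A median size and a standard error are different measures, so these values do not show that counting error accounts for the ratios. Some members named below exceeded it. In bulk tissue, fewer cells of a type and less RNA per cell cannot be told apart.

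At 2-fold, 1 of the 35 members was higher in replicate 2, against 0.69% of all genes, and 0 were lower, against 0.989% of all genes. The gene was Cyp2j9, with 20 and 44 counts and a ratio of 1.26 ± 0.39. In the second quantifier its counts were 31.0 and 41.0 and its ratio was 0.58, so this call rested on few reads. Ugt1a6b at 0.97 ± 0.20 and Ugt1a6a at 0.94 ± 0.12 were just inside the 2-fold limit.

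Genes with many reads showed smaller differences that exceeded counting error. Fmo2 was higher in replicate 2 by 0.62 ± 0.05, from 1210 and 1689 counts, and by 0.64 in the second quantifier. Its neighbour Fmo1 differed by 0.22 ± 0.08. Summed over the Ugt1a locus, which avoids the split between its genes, there were 447 and 644 counts, a ratio of 0.67 ± 0.09, and the second quantifier gave 0.69. Cyp2e1 was lower in replicate 2, at -0.31 ± 0.06, the direction that the adipocyte markers also took (median -0.77, 8 of 8 lower). Macrophage markers were also lower on balance (median -0.35, 4 of 6 lower, sum 243 and 169 TPM). More markers were lower than higher for kidney tubule (median -0.90, 2 of 2), smooth muscle (-0.11, 3 of 5) and endothelium (-0.04, 4 of 6). The kidney tubule markers summed to only 2.37 and 1.40 TPM. Hepatocyte markers were split (1 of 2 lower), as were capsule and fibroblast markers (3 of 6 lower). All 4 cortex and all 4 chromaffin markers were higher. The part of any cell type in the Cyp2e1 difference was not tested.

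Of the other genes with high levels, Cyp1b1 was at 0.14 ± 0.05, Cyp2d22 at 0.09 ± 0.07 and Sult1a1 at 0.10 ± 0.10. Cyp4f13 was at -0.01 ± 0.06, Cyp4b1 at 0.03 ± 0.07, Cyp4v3 at -0.04 ± 0.07, Cyp4f16 at -0.04 ± 0.12 and Cyp20a1 at -0.09 ± 0.08. Cyp4f17 was at -0.19 ± 0.11 and Sult5a1 at 0.43 ± 0.20. For all of these apart from Cyp1b1, Cyp4f17, Cyp2d22, Cyp20a1 and Sult5a1, the ratio was no larger than its counting error.

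**Figure D4:**
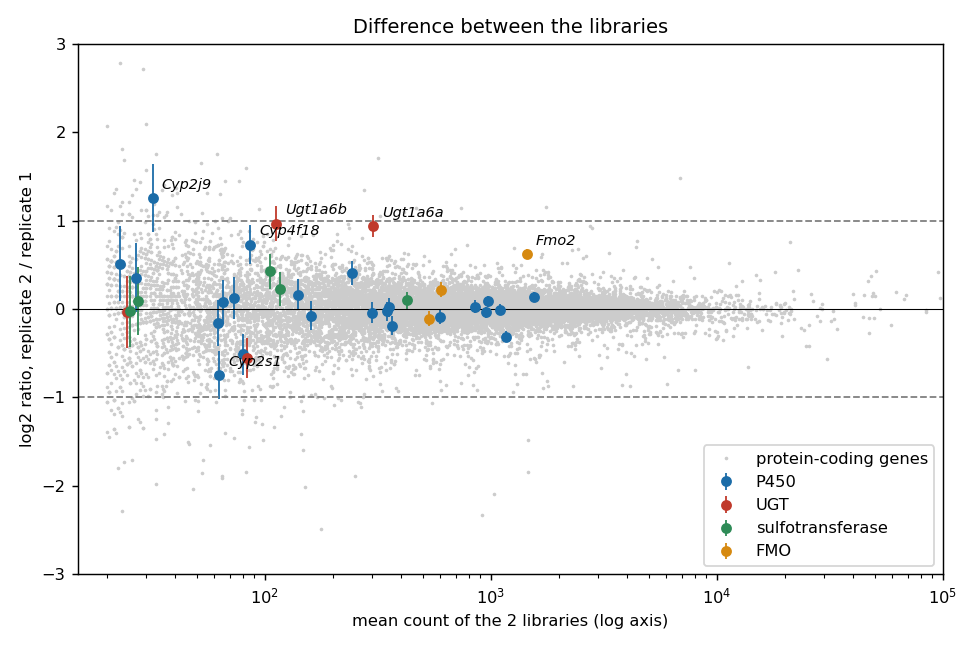
Log2 ratio of replicate 2 to replicate 1 against mean count (log axis) for the 35 members, with bars of 1 counting standard error, over protein-coding genes in grey. Dashed lines mark 2-fold, and 20 of the grey genes lie outside the plotted range. Cyp2j9 is the member above the upper line, and Fmo2 lies high among genes of its count.

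**Figure D5:**
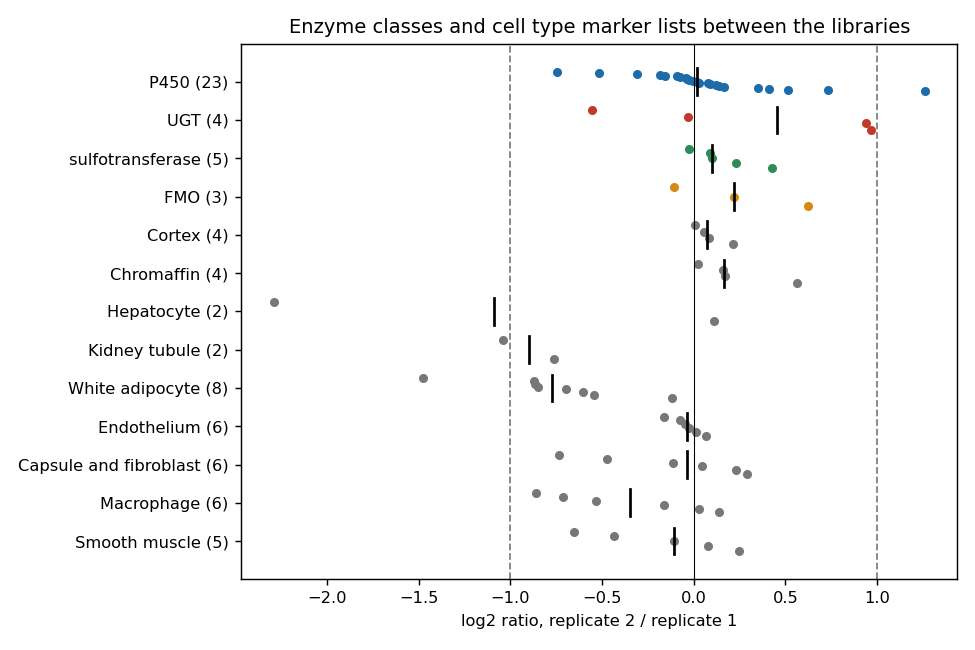
Log2 ratio of replicate 2 to replicate 1 for each gene with a mean count of 20 or more, by enzyme class and by marker list, with the median as a black bar and the number of genes in brackets. All 8 white adipocyte markers lie below 0, while the P450 median lies at 0.02 and the cortex median at 0.07.

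The quantifiers gave like levels. Of 29 members with 1 TPM or more in either, 0 were 2-fold apart, against 1.98% of 12827 protein-coding genes, and both detected the same 27 genes. The widest gaps were in Ugt1a7c, at -0.74 on the log2 scale (second over first), and Fmo5, at 0.31. Below the limit, Cyp4x1 had 0 and 1 counts in the gene tables and 41.9 and 48.5 estimated counts in the second quantifier. The antisense gene Cyp4x1os, which overlaps it, had no count in the gene tables of either library. The cause of this gap was not tested.

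Genes that serve these enzymes were mostly expressed. Of the 4 electron donors listed, Por was at 73.6 ± 0.88 TPM, and Cyb5a at 91.7 ± 16.5, Cyb5b at 136 ± 9.12 and Cyb5r3 at 101 ± 6.69 TPM. Of the receptors that control the enzymes in liver, Nr1i2 had no count, and Nr1i3 and Hnf4a were each at 0.015 TPM on average, while Ppara was at 2.51 ± 0.36 TPM. For sulfate supply, Papss1 was at 22.6 ± 0.53 TPM, Papss2 at 5.97 ± 0.26 TPM and the transporter gene Slc35b2 at 19.6 ± 0.17 TPM. For glucuronic acid supply, Ugp2 was at 15.6 ± 0.34 TPM, Ugdh at 21.2 ± 1.32 TPM and the transporter gene Slc35d1 at 7.40 ± 1.17 TPM. Gusb, which removes glucuronic acid again, was at 23.9 ± 0.74 TPM. The microsomal epoxide hydrolase gene Ephx1 was at 119 ± 0.57 TPM and the soluble form Ephx2 at 5.18 ± 0.95 TPM. Of this list of 19 genes, 16 were detected, against 56.4% of all protein-coding genes. How far their levels relate to the 143 members was not tested.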

How the data were processed

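Total RNA was depleted of ribosomal RNA and sequenced with strand-specific kits from 300 ng, per the labels. For each library, expected counts, TPM, FPKM and the posterior SD of the count per gene, and the percent of a gene held by each transcript, were deposited by the authors. They rest on build mm10 and annotation GENCODE M21, per the library notes. A second deposited table gave estimated counts and TPM per transcript, and its values were summed per gene (the second quantifier). Aligner and quantifier: not given in the sources used here. TPM was scaled over all 81881 features of the gene table.

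Levels were read from the deposited TPM. Expected counts were rounded, and ratios used totals scaled by TMM factors from edgeR 4.0.16 in R 4.3.3 (0.997 and 1.00) and a prior count of 0.5. DESeq2 1.42.0 size factors were an alternative. Quantifiers were compared on mean TPM plus 0.1. Of 55536 annotated genes, 55450 stood in both kinds of table and were described. Entries that name no gene stayed out of totals. Standard errors of ratios and limits for zero counts reflect counting alone. As 1 group of 2 libraries allows no test, there are no p-values. The ratio script was tested on simulated data.

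Named genes were all detected members, further members with a mean of 0.5 TPM or more, and 11 well known liver members. The members and lists were chosen with earlier results of these data known. The limit on protein-coding transcripts only was added after seeing the data. Sts matched no symbol, and 1 of the named members is not reported here. Tables and figures were made with Python 3.11.15, pandas 2.3.3, numpy 2.4.6 and matplotlib 3.10.9.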

Additional observations from a re-analysis of the deposited data

How the results depend on the processing

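The number of detected members was 27, and 32 at 0.5 TPM, 19 at 2 TPM, 26 at 1 FPKM, 27 in the second quantifier, 25 in protein-coding transcripts only and 35 when TPM was rescaled over protein-coding genes. In protein-coding transcripts only, the genes lost were Cyp46a1 (1.01 and 0.89 TPM) and Sult2b1 (0.65 and 0.85 TPM). Leaving out a library gave 27 to 30. UGTs went from 2 detected to 1 at 2 TPM and 4 when rescaled, and sulfotransferases from 4 to 2 at 2 TPM. Rescaling raised the summed TPM from 259 to 707 for all members, from 190 to 518 for P450s, from 9.10 to 24.8 for UGTs, from 21.9 to 59.8 for sulfotransferases and from 38.4 to 105 for FMOs, by its construction. The P450 sum was 179 TPM in the second quantifier. Without 1 library the sums ranged from 248 to 270 TPM for all members, and from 32.8 to 44.0 for FMOs and 6.94 to 11.3 for UGTs. The median log2 ratio over members stayed between 0.03 and 0.09. Members past 2-fold numbered 1, and 3 at a mean count of 5 or more (Cyp2j9, Cyp8b1 and Ugt1a2) and 0 at 50 or more. In the second quantifier the count was also 1, but the gene was Ugt1a6b, and the cause was not tested. The share of the leading transcript of a detected member moved by more than its SD in 15 of 27 genes in the second quantifier, for example from 97.0% to 36.6% in Ugt1a6a and from 61.0% to 32.6% in Fmo2, and the cause was not tested. No ratio can be formed without either library. Between quantifiers 0 members passed 2-fold at any pseudocount or library tried. No paired analysis was possible because there was 1 group. Depth limits the genes under 3 counts, for which absence cannot be told from low expression.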

Other observations

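Among entries with a matching symbol but no protein-coding transcript, Cyp21a2-ps, a pseudogene copy of the steroid hydroxylase gene Cyp21a1, was at 162 TPM in replicate 1 and 245 TPM in replicate 2, above every one of the 143 members. Its reads can be shared with that gene. The next such entry, Cyp4b1-ps2, was at 0.37 and 1.00 TPM.

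Cyp27b1, which activates vitamin D, had 18 and 21 counts, and none of its TPM lay in protein-coding transcripts in either library.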
